A study of Mus musculus with 2 samples.

Results

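Fibrillar collagens I, III and V are the collagens of bone, skin and tendon fibrils, and their 6 chains are encoded by *Col1a1*, *Col1a2*, *Col3a1*, *Col5a1*, *Col5a2* and *Col5a3*. They were read in primary osteoblasts, the bone-forming cells, from wild-type and *Slc39a13*-KO newborn mice, with 1 array for each genotype. *Slc39a13* encodes a zinc importer of the ZIP family, and the KO allele lacks an internal block of exons in the germ line, replaced by a *Neo* cassette. The cells of both genotypes came from skull vaults digested stepwise with collagenase and dispase, the later fractions being grown in serum-containing medium without a stated stimulus. The number of pups behind a culture is not stated. The 6 genes were taken by name, 6 of 18194 genes on the array. All of their probe sets with exactly 1 gene symbol were used, 14 in number, and 0 member probe sets shared a symbol with another gene.

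A fibrillar collagen is a rope of 3 chains wound into a triple helix from glycine-led triplets, made as a procollagen and trimmed outside the cell before it packs into fibrils. Type I, built of *Col1a1* and *Col1a2* products, is the bulk of bone matrix. Type III is a homotrimer of the *Col3a1* chain that is mixed into the fibrils of skin and vessels, and type V, of *Col5a1*, *Col5a2* and in some tissues *Col5a3* chains, starts fibrils and limits their width. Mutations in genes of all these types cause bone fragility or forms of Ehlers-Danlos syndrome in humans, which is the disease group the study was concerned with.

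The chains did not differ as a block between the arrays. *Col3a1* and *Col5a1* were lower in the *Slc39a13*-KO array on every probe set, by a mean of 5.16-fold (n = 2 probe sets) and 2.40-fold (n = 3). The mean of *Col5a3* was 1.89-fold lower on its 1 usable probe set. *Col1a2* and *Col5a2* stayed within 1.3-fold on each measured probe set, and *Col1a1* gave a different answer on each of its 2 probe sets. With 1 array per genotype no test could be made and no p-value is given, so each difference is between these 2 arrays. The only error at hand is between probe sets of a gene, which is technical.

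The wild-type and *Slc39a13*-KO arrays had 48.2% and 51.8% of probe sets above a floor of 85.1, the median of all signals, and 12270 genes had a probe set above it in at least 1 array. *Slc39a13* itself was read by 1 probe set, at 1309 in the wild-type array against 90.4 in the other. Where that probe set lies relative to the deleted exons was not analysed here. Genes called at least 2-fold higher made up 57.5% of all calls, but 38.4% with arrays scaled to a common median, 47.5% after quantile normalization and 96.4% when scaled on the poly-A controls (spiked RNAs, of whose 24 probe sets 24 were lower in *Slc39a13*-KO, with a median log2 ratio of -1.02), so every direction here is relative to the bulk of genes. The log2 ratio (*Slc39a13*-KO over wild-type) had a median over all genes of 0.11, and of 0.95 with the poly-A scaling. As a sign of RNA integrity, the 3′ over 5′ signal of the actin control was 1.30 and 1.26 in the 2 arrays, and that of the Gapdh control 0.796 and 0.752.

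The label of the cells was set against osteoblast markers. *Alpl*, the bone alkaline phosphatase, read 70.6 in wild-type, below the floor, against 197 in *Slc39a13*-KO. *Sp7*, a transcription factor that osteoblasts require, had 94.8 and 153, and *Ibsp*, a bone sialoprotein, was under the floor on both of its probe sets in either array. *Bglap* (osteocalcin) and *Runx2* had no probe set with 1 symbol. Of the 12 osteoblast markers listed 5 were measured, 4 of them higher in *Slc39a13*-KO and 0 lower, beside 8.01% and 5.93% of all measured genes. Their summed signal was 917 and 26520, the latter mostly from *Omd* (osteomodulin), which had 357 and 24251. *Pth1r*, the parathyroid hormone receptor, was 5.20-fold higher, and *Dmp1*, a matrix protein of osteocytes, at least 4.50-fold. The defining markers that could be read were thus below or near the floor in the wild-type array. In *Slc39a13*-KO *Ibsp* was below it too, with *Alpl* at 197 and *Sp7* at 153 beside a floor of 85.1. The cells are called osteoblasts as labelled, and these signals do not establish the name. The paper's methods mention an alkaline phosphatase stain of its osteoblasts, and its RT-PCR read *Runx2* in them.

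Stretches upstream of the genes are shown for the chain that differed most (*Col3a1*), for the other chain lower throughout (*Col5a1*) and for a chain close between the arrays (*Col1a2*), so that chains with a lower signal can be set beside one that was level. Each is 200 bases from RefSeq (build GRCm38.p6), 250 to 51 bases before the listed transcript start, 5′ to 3′ on the + strand. Capitals mark CCAAT (a box bound by NF-Y), GGGCGG (a GC box bound by Sp1) and CAGAC (the core of Smad binding elements), each searched on both strands; the 3 motifs do not overlap in these windows. *Col3a1* lies at chr1:45311288-45311487, *Col5a1* at chr2:27886175-27886374 and *Col1a2* at chr6:4505368-4505567.
Col3a1: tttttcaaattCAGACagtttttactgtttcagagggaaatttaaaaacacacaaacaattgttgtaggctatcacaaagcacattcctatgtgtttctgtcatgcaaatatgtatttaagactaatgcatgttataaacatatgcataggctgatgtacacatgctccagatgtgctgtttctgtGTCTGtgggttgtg
Col5a1: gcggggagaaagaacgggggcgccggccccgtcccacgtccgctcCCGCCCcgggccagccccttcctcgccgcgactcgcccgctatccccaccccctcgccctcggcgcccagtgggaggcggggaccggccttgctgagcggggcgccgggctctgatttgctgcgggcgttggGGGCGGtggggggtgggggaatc
Col1a2: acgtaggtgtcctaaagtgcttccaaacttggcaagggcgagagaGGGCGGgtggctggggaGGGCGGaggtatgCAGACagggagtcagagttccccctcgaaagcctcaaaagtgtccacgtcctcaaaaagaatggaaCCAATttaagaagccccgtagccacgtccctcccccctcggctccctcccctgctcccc

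The upstream windows of the chains that were lower differed widely in composition. That of *Col3a1* was 35% G and C with 0 CpG, which holds for 10.9% of 32851 mouse promoter windows of the same length, and had 2 CAGAC cores. That of *Col5a1* was 78% G and C with 25 CpG, more than in 95.2% of windows, and had 2 GC boxes and 0 CAGAC cores. The *Col1a2* window had 9 CpG, 2 GC boxes, 1 CCAAT box and 1 CAGAC core. Over all windows 28.4% held CCAAT, 24.6% GGGCGG and 35.8% CAGAC, so a match is common and is a description of letters only. Of the 6 genes 4 had an entry in the promoter table, the fourth being *Col5a3*.

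*Col1a1*, which codes for the chain that supplies most of the type I helix, was read by 2 measured probe sets. Probe set 1423669_at read 27133 in wild-type against 28006 in *Slc39a13*-KO, a log2 ratio of 0.046. Probe set 1455494_at had 5512 and 2093, a log2 ratio of -1.40, or 2.63-fold lower. One reading thus put *Col1a1* level between the arrays and the other put it clearly lower, and the mean log2 ratio of -0.68 had an SD of 1.02 (n = 2 probe sets), larger than the value itself. *Col1a1* was therefore not called, a call being a mean difference of at least 2-fold with all measured probe sets on the same side of 0.

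*Col1a2*, for the other chain of type I, was level. Its brighter probe set, 1450857_a_at, had 33363 and 35382 (log2 ratio 0.08), and 1423110_at had 24352 and 19022 (log2 ratio -0.36, 1.28-fold lower). The mean log2 ratio was -0.14 (SD 0.31, n = 2 probe sets). A further probe set of the gene, 1446326_at, did not reach the floor in either array (67.2 and 68.4) and was not used.

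*Col3a1*, for the type III chain, had the largest difference of the 6. Probe set 1427883_a_at went from 30978 (wild-type) to 10852 (*Slc39a13*-KO), a log2 ratio of -1.51 and 2.85-fold lower. Probe set 1427884_at went from 6215 to 665, a log2 ratio of -3.22 and 9.34-fold lower. Both readings were lower, but they differed on the size, with a mean log2 ratio of -2.37 (SD 1.21, n = 2 probe sets). The gene passed the 2-fold threshold on either probe set alone.

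*Col5a1*, for the defining chain of type V, was lower on all of its probe sets. Probe set 1416740_at had 13434 in wild-type and 8114 in *Slc39a13*-KO (log2 ratio -0.73), 1434479_at had 7837 and 2301 (log2 ratio -1.77) and 1416741_at had 2041 and 830 (log2 ratio -1.30). The mean log2 ratio was -1.26 (SD 0.52, n = 3 probe sets). The brightest reading by itself was 1.66-fold lower and under the threshold.

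*Col5a2*, the partner chain of *Col5a1* in type V, was level. Probe set 1422437_at had 24843 in wild-type and 30839 in *Slc39a13*-KO (log2 ratio 0.31), whereas 1450625_at had 6840 and 5371 (log2 ratio -0.35). The readings fell on either side of 0 and the mean log2 ratio was -0.02 (SD 0.47, n = 2 probe sets). In the RefSeq table *Col3a1* and *Col5a2* are direct neighbours on chromosome 1, and the former was among the genes lower while the latter was not.

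*Col5a3*, for the least widespread type V chain, had a single usable reading. Probe set 1419703_at read 454 in wild-type against 240 in *Slc39a13*-KO, a log2 ratio of -0.92 that was just short of 2-fold. Its other probe set, 1425984_at, was below the floor in both arrays (19.1 and 7.11). The gene thus has no spread between probe sets. It crossed the 2-fold threshold with the arrays scaled to a common median (log2 ratio -1.16) or quantile normalized (-1.09). Without a floor the gene crossed it too (-1.17), but only because the dim 1425984_at then entered the mean.

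**Figure D1:**
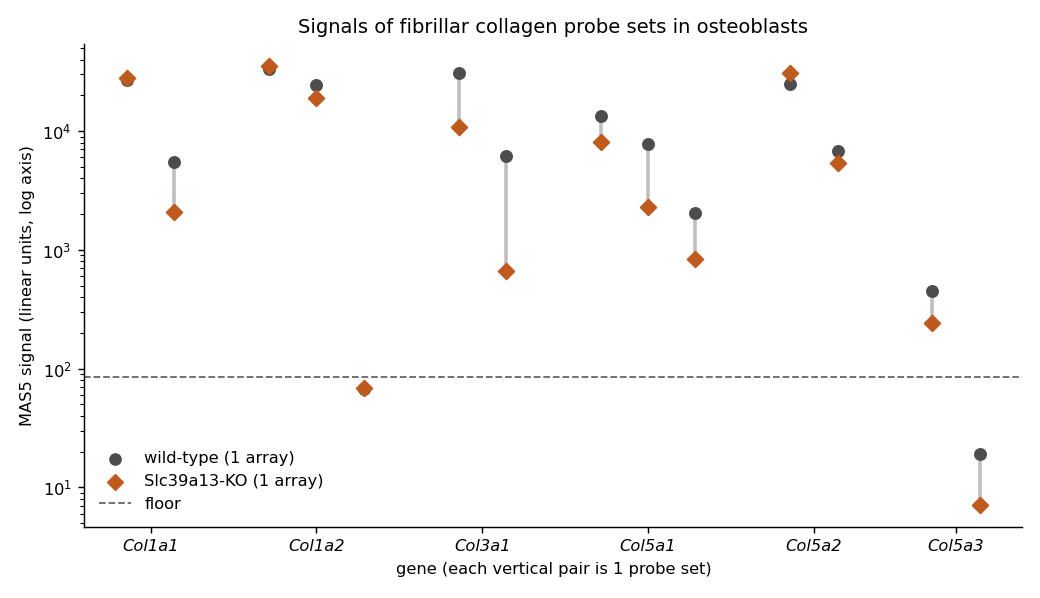
MAS5 signals (vertical, linear units on a log axis) of the 14 probe sets of the 6 genes, each vertical pair being 1 probe set read in the wild-type array (grey circle) and the Slc39a13-KO array (orange diamond), with the floor of 85.1 dashed. Both Col3a1 and all 3 Col5a1 pairs drop, Col1a2 and Col5a2 pairs nearly coincide, and the left Col1a1 pair coincides while the right one drops from 5512 to 2093.

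Counted over genes, 2 of the 6 were called lower and 0 higher, beside 5.93% lower and 8.01% higher of all 12270 measured genes. Counted over probe sets, 5 of the 12 measured were at least 2-fold lower and 0 higher, beside 6.54% and 9.79% of all measured probe sets. Among probe sets with a geometric mean signal of at least 5000, 1 of 7 member readings (*Col3a1*) was at least 2-fold lower, beside 6.75% of all probe sets so bright. The median log2 ratio over the 6 genes was -0.80 and that of all genes 0.11, and 6 of 6 means were below 0 against 41.7% of all genes. That of *Col5a2* was only -0.02, and it was 0.003 after quantile normalization. Taking the brightest probe set alone, *Col1a1* (0.046), *Col1a2* (0.08) and *Col5a2* (0.31) lay above 0 and the other members below it. With only the brightest probe set of each gene 1 was called lower (*Col3a1*), beside 7.15% of all genes. With the poly-A scaling 1 was lower (*Col3a1*), beside 1.72% of all genes, and 1 higher (*Col5a2*, log2 ratio 1.02). Under that scaling 5988 of 12882 genes were called higher, and all genes had a median of 0.95. Probe sets of 1 gene are not independent of each other, and these counts describe 2 arrays.

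**Figure D2:**
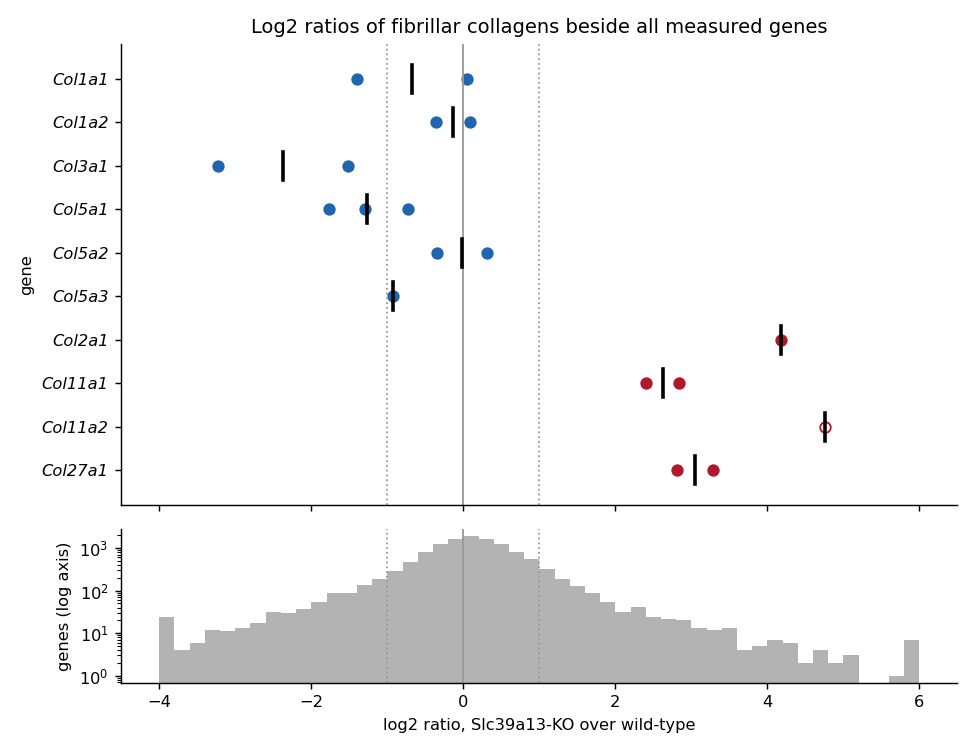
Difference between the arrays (horizontal, log2 of Slc39a13-KO over wild-type) for each measured probe set (dots) and the gene mean (black bars) of the 6 genes in blue and 4 other fibrillar collagens in red, with 2-fold differences dotted and a hollow dot for a bound against the floor. The lower panel counts all measured genes (log axis, end bins hold values beyond them); the means of the 6 genes run from -2.37 for Col3a1 to -0.02 for Col5a2, and those of the other 4 from 2.62 to 4.76.

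A scaling factor common to an array cancels when the log2 ratios of chains are subtracted, as long as the same probe sets are measured, so chains were compared in this way. *Col5a1* lay below *Col5a2* by a log2 difference of -1.25, from -2.08 to -0.38 over the pairs of probe sets and below 0 in 6 of 6. *Col5a3* lay below *Col5a2* by -0.90, in 2 of 2 pairs. For type I, *Col1a1* minus *Col1a2* was -0.54, from -1.48 to 0.40 and below 0 in 3 of 4 pairs, so a difference between the chains of type I was not separable from the spread between probe sets, and it was -0.039 with the brightest probe set of each gene. It was -0.28 with the poly-A scaling, under which the dim *Col1a2* probe set 1446326_at passed the floor in *Slc39a13*-KO and entered the mean. *Col3a1* lay below *Col1a2* by -2.23, from -3.31 to -1.16 and in 4 of 4 pairs. These pairs reuse the same probe sets on the same 2 arrays, so their count is a description.

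The dimmest and the brightest probe set of a member disagreed in the same direction. In 5 of the 5 genes with several measured probe sets, the dimmest one had a lower log2 ratio than the brightest, a pattern noticed after the values were seen, whereas this held for 40.1% of all 4657 genes with more than 1 probe set above the floor in each array. It held for 37.9% of genes whose brightest probe set had a geometric mean signal of at least 5000, and for 42.5% of genes whose mean log2 ratio was below 0. In *Col5a1*, with 3 probe sets, the lowest log2 ratio was that of the one with the middle signal. The median of dimmest minus brightest was -0.66 over the 5 genes and 0.14 over all. The gap was widest for *Col3a1* (-1.71) and *Col1a1* (-1.44) and smallest for *Col1a2* (-0.44). The range between probe sets was as large as that of *Col3a1* in 4.61% of genes with several measured probe sets, as that of *Col1a1* in 8.54% and as that of *Col1a2* in 61.4%. Measured probe sets of both signs, as in *Col1a1*, *Col1a2* and *Col5a2*, were found in 39.4% of such genes. Whether the top of the scanner's range or the place of a probe set along the transcript took part in this was not tested.

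**Figure D3:**
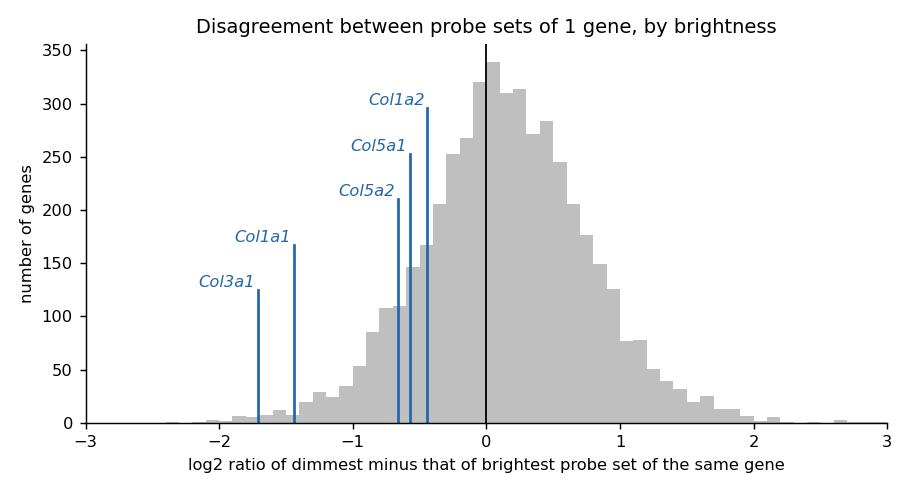
Difference between the log2 ratio of the dimmest and the brightest probe set of a gene (horizontal, end bins hold values beyond them), with the number of genes on the vertical axis in grey and the 5 collagen genes as blue lines, whose heights carry no value. All 5 lines lie left of 0, from -1.71 for Col3a1 to -0.44 for Col1a2, whereas the bulk of genes has a median of 0.14.

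Other fibrillar collagens, those of cartilage and the minor chains, were higher in *Slc39a13*-KO where measured. Of 5 on the array 4 were measured, 4 were at least 2-fold higher in *Slc39a13*-KO and 0 lower, with a median log2 ratio of 3.62. *Col11a1*, whose chain can stand in for that of *Col5a1* in mixed V/XI molecules, had 3652 in wild-type and 22470 in *Slc39a13*-KO (6.15-fold higher). *Col5a1* minus *Col11a1* was -3.89 on the log2 scale, from -4.60 to -3.14 and below 0 in 6 of 6 pairs of probe sets. *Col2a1*, the main cartilage chain, had 2592 and 47019, *Col27a1* was 8.29-fold higher, and *Col11a2*, below the floor in wild-type, was at least 27.2-fold higher. *Col24a1* was under the floor in each array (4.34 and 29.0).

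Genes whose products fold and modify procollagen in the endoplasmic reticulum had a median on the higher side. Of 19 measured 4 were called higher and 1 lower, with a median log2 ratio of 0.40. *P3h2*, a prolyl 3-hydroxylase, was 4.72-fold higher, *P4ha3*, a catalytic subunit of prolyl 4-hydroxylase, 3.15-fold higher and *Crtap*, a partner of prolyl 3-hydroxylation, 2.32-fold higher. *P4ha2*, another catalytic subunit of prolyl 4-hydroxylase, was 2.53-fold lower (3657 and 1447). The collagen chaperone *Serpinh1* had 19609 and 25936 and was not called.

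Outside the cell, 9 genes of procollagen cleavage and cross-linking were measured, of which 3 were higher and 2 lower (median log2 ratio 0.34). *Pcolce2*, which enhances cleavage of the C-propeptide, was 8.37-fold higher, *Loxl4*, of the lysyl oxidase family, 4.80-fold higher, and *Adamts3*, a procollagen N-proteinase, at least 2.75-fold higher. *Tll1*, a C-proteinase of the tolloid family, was at least 7.93-fold lower and *Loxl1*, a lysyl oxidase of elastic fibres, 3.70-fold lower.

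The list of fibril-associated proteins and collagen receptors had 21 measured genes, 8 called higher and 1 lower (median log2 ratio 0.50). The integrin subunits *Itga2* and *Itga1*, which bind collagen, were at least 17.0-fold and at least 5.55-fold higher, and *Ogn*, a small leucine-rich proteoglycan, 11.0-fold higher. *Postn* (periostin), which binds collagen I, was 3.04-fold lower with 23324 and 7672, the 1 gene of this list called lower. Among 8 measured genes of collagen breakdown 0 were called higher and 1 lower, the metalloproteinase inhibitor *Timp3* (3.03-fold), the median log2 ratio being -0.19.

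Known regulators of fibrillar collagen genes were mostly close between the arrays. The 21 measured had a median log2 ratio of 0.10, with 2 called higher and 2 lower. *Tgfbr2*, the type II TGF-β receptor, was 5.03-fold higher and *Sp3*, a GC box factor, 2.03-fold higher. The ligand *Tgfb3* was 2.34-fold and the inhibitory Smad *Smad7* 2.17-fold lower. *Larp6*, which binds a stem-loop in the messengers of *Col1a1*, *Col1a2* and *Col3a1*, had 250.3 and 260.7. All of these lists are to be read beside the 5.93% lower and 8.01% higher of all genes.

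**Figure D4:**
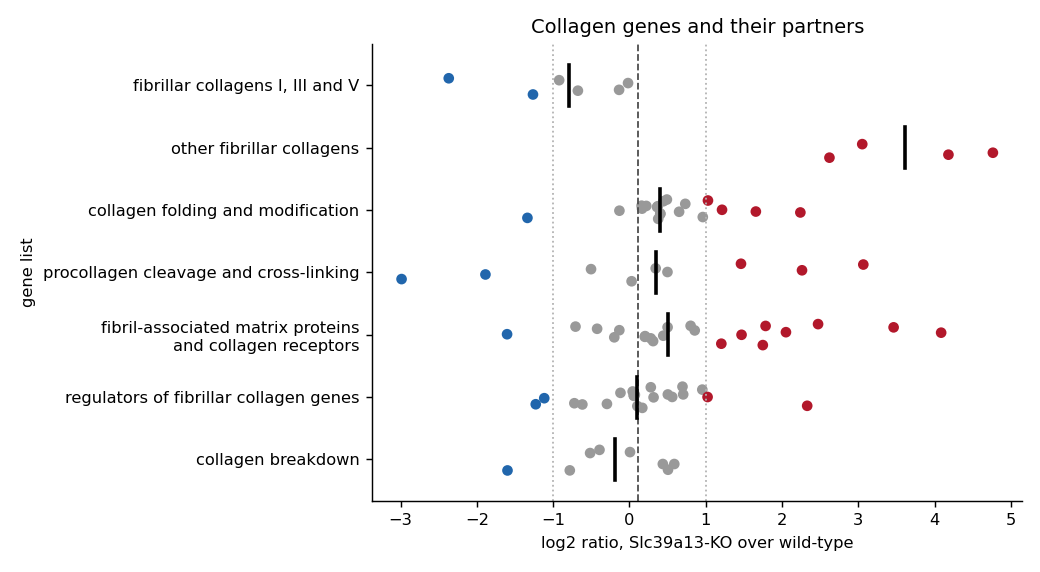
Measured genes of 7 lists by their difference between the arrays (horizontal, log2 of Slc39a13-KO over wild-type), with points coloured red for higher, blue for lower and grey for uncalled genes, a black bar at the list median, 2-fold differences dotted and the median of all genes dashed. The top row, with a median of -0.80, and the other fibrillar collagens, with 3.62, lie on opposite sides of the dashed line at 0.11; vertical scatter within a row carries no value.

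Markers of other cell types also differed between the 2 arrays, to be read beside the 5.93% lower and 8.01% higher of all genes. Of 10 measured chondrocyte markers 10 were higher, and their summed signal was 3593 in wild-type and 126595 in *Slc39a13*-KO. *Cnmd* (chondromodulin) was at least 623-fold, the cartilage collagen chain *Col9a1* at least 106-fold, the proteoglycan *Acan* at least 52.4-fold and *Sox9*, the master factor of cartilage, 11.8-fold higher. Smooth muscle and myofibroblast markers lay mostly on the other side, with 5 of 8 lower and 1 higher and summed signals of 44705 and 17591. The smooth muscle actins *Actg2* and *Acta2* were 41.7-fold and at least 3.06-fold lower, *Lmod1* (leiomodin) was 3.86-fold lower and *Smtn* (smoothelin) 3.56-fold higher. Of 8 tendon and fibroblast markers 2 were lower, *Tnmd*, a tendon membrane protein, by 6.10-fold and the fibroblast surface protein *Thy1* by 3.18-fold. *Dpt*, a dermal matrix protein, was the 1 called higher, by 4.43-fold, and the uncalled ones fell on both sides of 0. The list median log2 ratio was -0.23. The summed signals of 21641 and 8117 mostly restate *Thy1* and *Tnmd*, which had 12858 and 7120 in wild-type. Of 8 measured macrophage markers 5 were higher (summed signals 963 and 3785), led by lysozyme (*Lyz2*, 8.41-fold), *C1qb* (at least 3.70-fold) and *Cd68* (at least 3.23-fold), while the general leukocyte marker *Ptprc* was below the floor in both. Of 8 epithelial and endothelial markers 3 were measured and 0 called (482 and 405), with *Cdh1* and *Pecam1* below the floor. In such bulk RNA, fewer cells of a type and less collagen RNA per cell cannot be told apart, and the part of these cell types in the values of *Col3a1* and *Col5a1* was not tested.

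**Figure D5:**
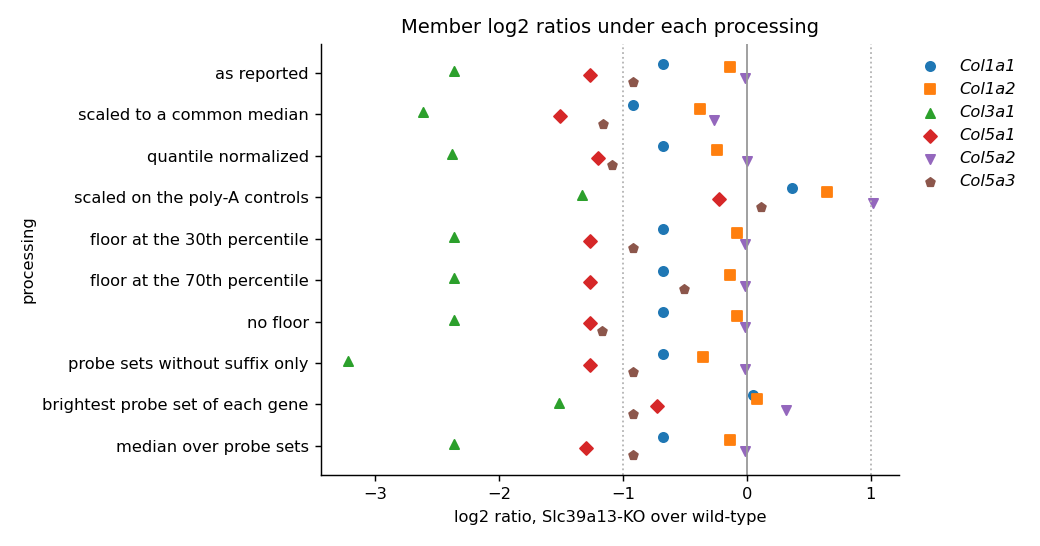
Values of the 6 genes (horizontal, log2 of Slc39a13-KO over wild-type) under the processing reported and 9 alternatives (vertical), with 2-fold differences dotted. Col3a1 stays furthest left in every line, from -3.22 to -1.33, and all genes shift to the right with the poly-A scaling.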

How the data were processed

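Biotinylated targets made from total RNA were read on Affymetrix mouse genome arrays, 1 per genotype. The deposited values are probe set signal intensities, which the authors made by MAS5 per the labels (version not given in the sources used here), whereas the study's methods name gcRMA for its own analysis. The deposited values are linear with a 2% trimmed mean of 500.003 in both arrays, as MAS5 scaling gives. This scaling hides any difference in total RNA per cell, and MAS5 reads each array alone, so low signals are noisy. Of 45101 probe sets (64 controls) 34945 had 1 symbol in the platform annotation, updated by gene ID through RefSeq (GRCm38.p6).

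Arrays were rescaled to a common trimmed mean, signals under the 50th percentile were raised to it (the floor), log2 was taken, and a gene took the mean over its probe sets above the floor in at least 1 array. Values against the floor are bounds ("at least"). The 2-fold threshold is that of the study. Levels of different genes are not compared. The number of arrays limits the precision. Python 3.11.15, numpy 2.4.6 and pandas 2.3.3 were used. All other fibrillar collagens are named. From each further list up to 3 called genes per direction are named, those that differed most, with the defining markers; *Serpinh1*, *Larp6*, *Ptprc*, *Cdh1* and *Pecam1* fall outside this rule and were named after their values were seen. With 2 arrays a pattern is 1 ratio, so genes of like pattern were not ranked. The members and lists were chosen with earlier results of these data known.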

Additional observations from a re-analysis of the deposited data

How the results depend on the processing

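No paired analysis was possible because each genotype has 1 array, and no array could be left out. Of 114 comparisons of a member value with an alternative, 95 moved by less than the median SD between probe sets of a gene (0.34), or kept a count within 1.5 times. Many of them could not move. The median over probe sets equals the mean for every member but *Col5a1*. A factor common to an array cancels in the chain differences, and a floor does not touch signals above it. The 95 are therefore a description and no measure of robustness. Scaling on the poly-A controls moved the log2 ratios to 0.36 for *Col1a1*, 0.64 for *Col1a2*, -1.33 for *Col3a1*, -0.23 for *Col5a1*, 1.02 for *Col5a2* and 0.12 for *Col5a3*, with 1 gene lower and 1 higher, as all genes shifted by construction. It also moved *Col1a1* minus *Col1a2* from -0.54 to -0.28 and *Col3a1* minus *Col1a2* from -2.23 to -1.98, since a further *Col1a2* probe set passed the floor. Relative to the median of all genes *Col3a1* was then at -2.28 (-2.47 as reported) and *Col5a1* at -1.18 (-1.37). With the floor at the 70th percentile *Col5a3* was at -0.51 and its difference from *Col5a2* at -0.49, since its *Slc39a13*-KO signal lay below that floor. Without the probe sets with a suffix (_a_at, _s_at or _x_at) *Col3a1* was at -3.22 and *Col3a1* minus *Col1a2* at -2.87. Among the members this left out 1427883_a_at of *Col3a1* and 1450857_a_at of *Col1a2*, the brighter reading of each gene. With the brightest probe set alone *Col1a1* was at 0.046, *Col3a1* at -1.51 and *Col5a1* at -0.73, *Col1a1* minus *Col1a2* at -0.039 and *Col3a1* minus *Col1a2* at -1.60, and 1 gene was lower, as with the 3-fold threshold (1 lower). The members called lower numbered 3 with median or quantile scaling, no floor or the 1.5-fold threshold. In that order 8.58%, 6.98%, 11.3% and 12.1% of all genes were called lower, against 5.93% as reported. That share was 7.15% with the brightest probe set, 2.71% with the 3-fold threshold and 1.72% with the poly-A scaling. *Col3a1* was called lower under all 9 alternatives to its value. Checks of the order of probe sets by brightness and of list medians were added after the data were seen. The dimmest probe set was lower than the brightest in 5 genes under each scaling and with the floor at the 30th or 70th percentile. The count could not change with median or poly-A scaling, where a common factor cancels. Nor could it change with the floor at the 70th percentile, since the member probe sets compared lay above it. The floor at the 30th percentile was 34.9. The *Col1a2* probe set 1446326_at (67.2 and 68.4) lay above that floor in both arrays and entered the comparison as the dimmest of its gene. The mean log2 ratio of *Col1a2* was then -0.08. The dimmest was lower in 6 genes without a floor, and in 3 without the suffixed probe sets, where 3 genes had several left.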
